A study of Arabidopsis thaliana with 15 samples.

Results

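The nuclear photosystem and light-harvesting genes of Arabidopsis thaliana described here are 40 loci, taken by their gene identifiers from the 32833 genes of a leaf count table. They are 18 antenna genes (4 LHCA, 5 LHCB1, 4 LHCB2 or LHCB3, and 5 genes of the minor antenna) and 22 genes counted here as core. The latter were grouped by name, as 12 PSA genes of photosystem I and 10 PSB genes of photosystem II, with PSBS among the PSB genes. Both photosystems are complexes of the thylakoid membrane in the chloroplast. The LHCA proteins collect light for photosystem I and the LHCB proteins mainly for photosystem II. Some of the PSA and PSB proteins listed here dock electron carriers, stabilise the oxygen-evolving site or tune the dissipation of excess light, and others are membrane subunits. In leaves the photosystem and light-harvesting genes give some of the most abundant transcripts of mesophyll cells. These genes are controlled by light, by chloroplast signals and by transcription factors such as GLK1 and GLK2.

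The plants were Col-0, a standard laboratory accession, grown for 6 weeks in boxes on ground zeolite. They were sprayed with Williamsia sp. Leaf354, a bacterium isolated from leaves, at 100000 (W5), 1000000 (W6), 10000000 (W7) or 100000000 (W8) CFU/ml, or with phosphate-buffered saline (mock). Aboveground parts were taken 96 h later, and each of the 3 libraries of a group pooled 2 plants from different boxes. Library totals ran from 17811560 to 21870246 counts. Mesophyll markers (RBCS1A, CA1 and RCA) summed to 13622 to 24344 CPM, here the counts per 1000000 after TMM scaling, over the 15 libraries. The 7 root markers summed to at most 0.452 CPM, with 3 of them at 0 in every library. Some libraries stood apart from their group over the 39 counted genes: mock replicate 3 was the lowest of its group for 38 of them, by a median of -0.25 on the log2 scale against the other mock libraries, W5 replicate 2 for 38, W6 replicate 2 for 39 and W8 replicate 2 for 38 (-0.15). Replicate 1 was the highest of its group for 38 genes in W5, 37 in W6 (0.15), 38 in W7 (0.15) and 32 in W8. Over all genes tested, mock replicate 3 also stood apart on the first principal component, the axis of largest variance (49.7%). It lay at 19.4 there, among the W7 libraries (-3.94, 12.9 and 25), while the other mock libraries were at -42.4 and -39.8. Because whole shoots were sampled, fewer mesophyll cells and less RNA per cell cannot be told apart.

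Upstream sequences are shown for 6 genes whose values are described below: the antenna gene with the largest fall (LHCB2.3), 2 antenna genes with the same pair of motifs (LHCA4 and LHCB4.1), a pair of paralogues whose balance moved (PSBQ1 and PSBQ2), and the gene with the largest fall of all (PSBS). Each is the 250 bases before the annotated gene start, read 5′ to 3′ on the gene's strand from the RefSeq assembly TAIR10.1: chr3:10255656-10255905, plus strand for LHCB2.3, chr3:17495034-17495283, minus strand for LHCA4, chr5:208616-208865, plus strand for LHCB4.1, chr4:11334102-11334351, plus strand for PSBQ1, chr4:2673244-2673493, minus strand for PSBQ2 and chr1:16869971-16870220, plus strand for PSBS. Capitals mark the G-box (CACGTG), the I-box (GATAAG, or CTTATC on the other strand) and the motif bound by GLK proteins (CCAATC, or GATTGG).
LHCB2.3: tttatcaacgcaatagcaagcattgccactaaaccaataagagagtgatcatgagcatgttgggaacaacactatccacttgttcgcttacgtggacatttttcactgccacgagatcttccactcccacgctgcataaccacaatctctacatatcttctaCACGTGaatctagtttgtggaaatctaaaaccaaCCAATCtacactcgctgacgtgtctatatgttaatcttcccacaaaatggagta
LHCA4: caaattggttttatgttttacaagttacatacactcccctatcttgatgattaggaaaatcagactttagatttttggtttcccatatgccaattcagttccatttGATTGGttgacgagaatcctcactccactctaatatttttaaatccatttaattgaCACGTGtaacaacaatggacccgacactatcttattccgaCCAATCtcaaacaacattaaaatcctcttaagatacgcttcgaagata
LHCB4.1: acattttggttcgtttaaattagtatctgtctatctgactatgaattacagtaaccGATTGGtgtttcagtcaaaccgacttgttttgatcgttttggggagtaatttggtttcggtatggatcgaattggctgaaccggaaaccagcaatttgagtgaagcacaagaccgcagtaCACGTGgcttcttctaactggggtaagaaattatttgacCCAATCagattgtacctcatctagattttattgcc
PSBQ1: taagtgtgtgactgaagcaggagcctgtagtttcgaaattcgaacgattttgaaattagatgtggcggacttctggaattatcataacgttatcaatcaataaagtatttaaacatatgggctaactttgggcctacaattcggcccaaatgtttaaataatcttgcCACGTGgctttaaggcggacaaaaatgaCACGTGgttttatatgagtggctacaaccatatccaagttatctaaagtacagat
PSBQ2: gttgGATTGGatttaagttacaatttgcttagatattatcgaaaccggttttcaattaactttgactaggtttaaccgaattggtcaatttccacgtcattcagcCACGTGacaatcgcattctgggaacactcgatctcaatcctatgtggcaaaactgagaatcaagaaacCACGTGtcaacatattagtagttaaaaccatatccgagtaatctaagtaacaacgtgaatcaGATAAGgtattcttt
PSBS: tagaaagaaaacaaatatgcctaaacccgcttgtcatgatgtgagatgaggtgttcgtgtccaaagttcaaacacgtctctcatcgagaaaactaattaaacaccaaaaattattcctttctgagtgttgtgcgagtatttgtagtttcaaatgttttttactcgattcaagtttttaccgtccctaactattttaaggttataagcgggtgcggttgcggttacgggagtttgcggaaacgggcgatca
The GLK motif was found in 11 of the 40 windows (27.5%), against 10.2% of 27443 windows of the same length over the genome. By role it was in 10 of 18 antenna windows and in 1 of 22 core windows, that of PSBQ2. The G-box was in 8 of 40 windows (20%, against 6.49%) and the I-box in 9 of 40 (22.5%, against 12.3%). The evening element, AAAATATCT, was in 0 of 40 windows, against 2.36% of all. Both strands were searched, and no 2 matches in these 40 windows overlapped. A match describes letters in this window and shows no binding, and the window of PSBS held none of the 4 motifs.

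The table gave usable counts for 39 of the 40 genes. LHCB1.5 (AT2G34420), the fifth LHCB1 copy, was at 0 in all 15 libraries. In the RefSeq annotation every one of its exon bases is also covered by a gene on the opposite strand, AT2G08665, which was itself at 0 in all libraries. Over the whole table, 1118 of 1188 genes with no exon base of their own (94.1%) were at 0 everywhere, against 6342 of 31360 other genes (20.2%). How the counting treated overlapping genes is not given in the sources used here, so this 0 cannot be read as absence of the transcript. A further 10 genes had under 95% of exon bases to themselves and are given as uncertain: LHCB1.3, LHCB2.3, LHCB3, LHCB6, PSAE1, PSAE2, PSAG, PSAH1, PSAH2 and PSBR. Copies can also share reads: LHCB1.1 and LHCB1.2 were identical at 94.5% of aligned transcript bases and LHCB2.1 and LHCB2.2 at 92.8%, and the latter pair shared 3 windows of 150 bases, the read length. LHCB1.1, LHCB1.2 and LHCB1.3 each had 0 such windows in common with another member.

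In mock plants the levels spanned a wide range. Per kilobase of own exon, LHCB1.3 had the highest mean level (21003 CPM), followed by PSBR (9998 CPM), LHCB1.2 (6501 CPM) and LHCA4 (5830 CPM). PSBS, which senses lumen acidity and switches on the heat dissipation of photosystem II, was at 638 CPM per kilobase, and LHCB4.3, a rare copy of the CP29 antenna protein, stood lowest of the 39 at 7.69 CPM. The level of a gene per kilobase and its log2 change from W5 to W8 had a Spearman's rho of 0.03 and a Pearson's r of -0.21 on the log scale across the 39 genes, which are not independent replicates.

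**Figure D1:**
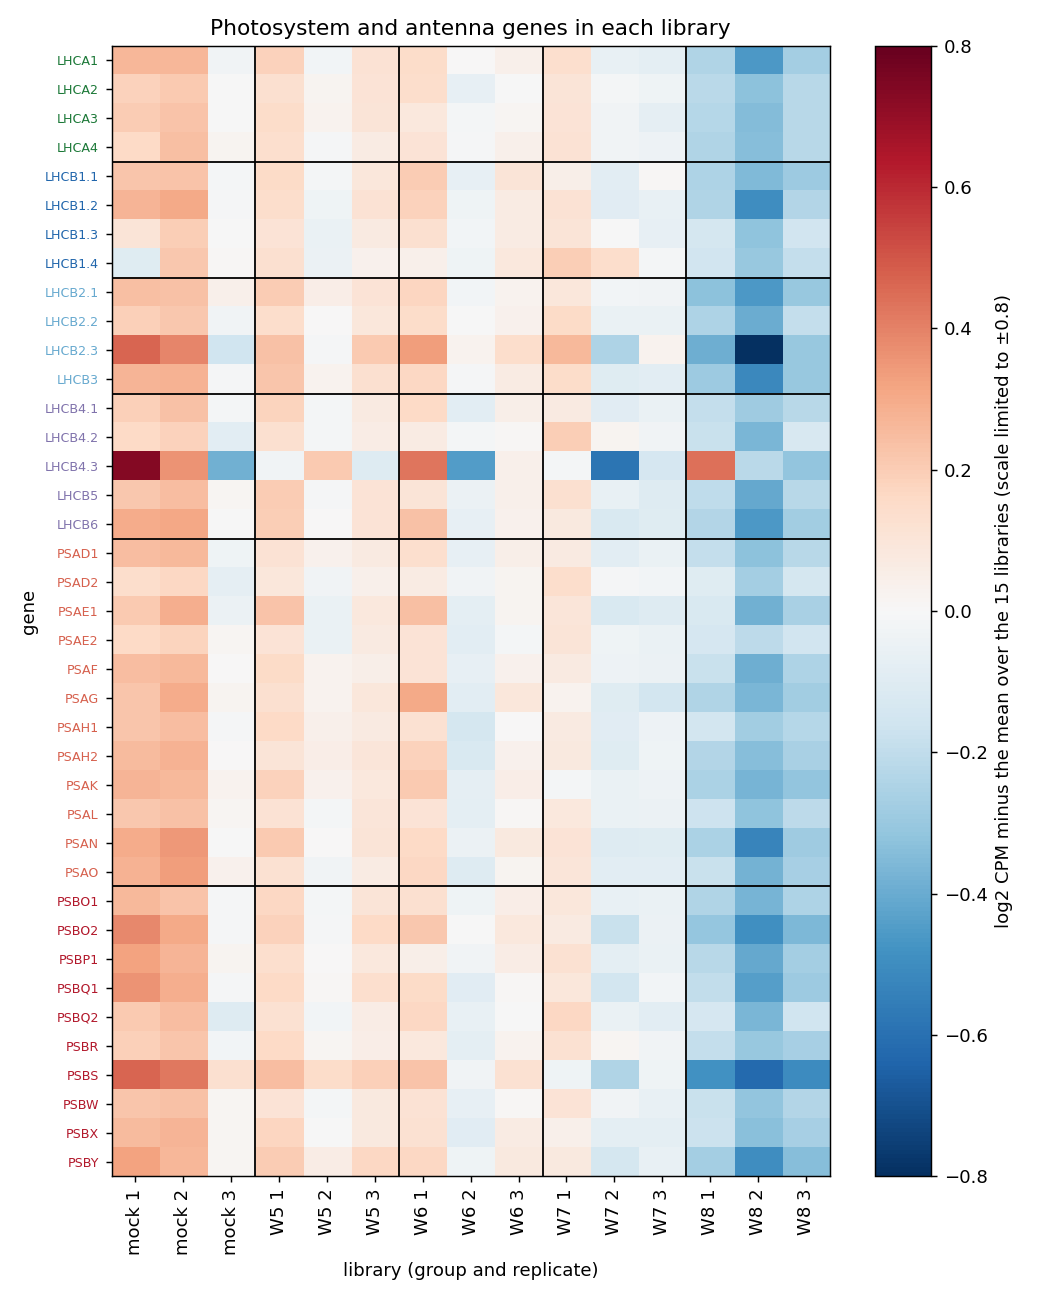
Level of each of the 39 counted genes (rows, grouped by role) in each of the 15 libraries (columns), as log2 CPM minus the gene's mean over all libraries, with the colour scale limited at 0.8 either side. The 3 W8 columns are blue for 38 genes, mock 3 is paler than the other mock columns, and LHCB4.3 shows no such pattern.

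Together the 40 genes took 15.6% ± 0.963 (SD, n = 3) of all counts in mock, 15.2% ± 0.535 in W5, 15% ± 0.693 in W6, 14.5% ± 0.698 in W7 and 12.2% ± 0.722 in W8. The W8 libraries (11.4% to 12.6%) lay below every other library, and W5, W6 and W7 overlapped with one another and with mock. Against mock, edgeR's quasi-likelihood test called 0 of the 39 genes lower in W5 (0.0155% of all genes were called lower there), 0 in W6 (0.34%), 1 in W7 (6.77%) and 38 in W8 (17%). None was called higher in any of these comparisons, where 0.165%, 0.943%, 6.29% and 18.5% of all genes were. At an unadjusted p under 0.05, 0 genes passed in W5, 3 in W6 and 15 in W7. The share of all genes was not counted there, so these counts cannot be set against it. DESeq2 called 7 lower in W7 (5.55% of all genes in its fit) where limma called 1 (6.29%). All of these comparisons share the mock libraries. Without mock replicate 3, 24 genes were called lower in W7 (9.78% of all genes in that fit) and 1 in W6 (0.899%).

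In W8 against mock the change ran from -0.88 for PSBS to -0.25 for PSAD2 on the log2 scale, with a median of -0.44, where the median of all genes was near 0. Every W8 library lay below every mock library for 38 of 39 genes, where 22% of all genes did so. LHCB4.3 was the exception. Its levels were 15, 11.5 and 6.89 CPM in mock and 12.2, 7.75 and 7.23 CPM in W8, and the groups overlapped. In W7, PSBS was the gene called. Every library lay below every mock library for 0 of 39 genes in W5 (5.59% of all genes), 0 in W6 (6.67%) and 2 in W7 (15%).

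Among the inoculated groups the change came at the last 10-fold step. Steps from W5 to W6 and from W6 to W7 moved the median gene by -0.04 and -0.05 on the log2 scale, and 0 genes were called lower in either (0.0155% and 1.03% of all genes were) or higher (0.273% and 1.59%). At an unadjusted p under 0.05, 0 and 2 genes passed, with the share of all genes again not counted. From W7 to W8 the median change was -0.27, with 22 of 39 genes called lower (5.32% of all genes) and 0 higher (6.79%). Leaving out W7 replicate 1 or W8 replicate 2 reduced the 22 to 2 genes, with median changes of -0.23 in both fits. The share of all genes called lower fell there as well, to 2.23% and 2.31%. Leaving out W7 replicate 2, W8 replicate 1 or W8 replicate 3 left 14 (3.79% of all genes), 13 (3.76%) and 8 (4.47%). Without mock replicate 3, which is in neither group but in the fit, 35 were called (6.98% of all genes). For 38 of 39 genes the last step was the largest fall of the 3 steps. Every W8 library was below every W7 library for 38 of 39 genes, against 14.4% of all genes, where W7 against W6 gave 1 (11.8%) and W6 against W5 gave 0 (6.31%).

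From W5 to W8, 38 genes were called lower (15.2% of all genes) and 0 higher (18.1%), with a median of -0.36, and W8 lay wholly below W5 for 38 (22.6%). The slope over the 12 inoculated libraries was called for 35 genes lower (15.4%) and 0 higher (19.4%). Without the W8 libraries only PSBS of these 35 was still called (2.72% of all genes were called lower there), with a slope of -0.15 per 10-fold density. Any difference among the 5 groups was called for 34 genes (32.9%), and for 22 without W8 replicate 2, where the share of all genes was not counted.

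**Figure D2:**
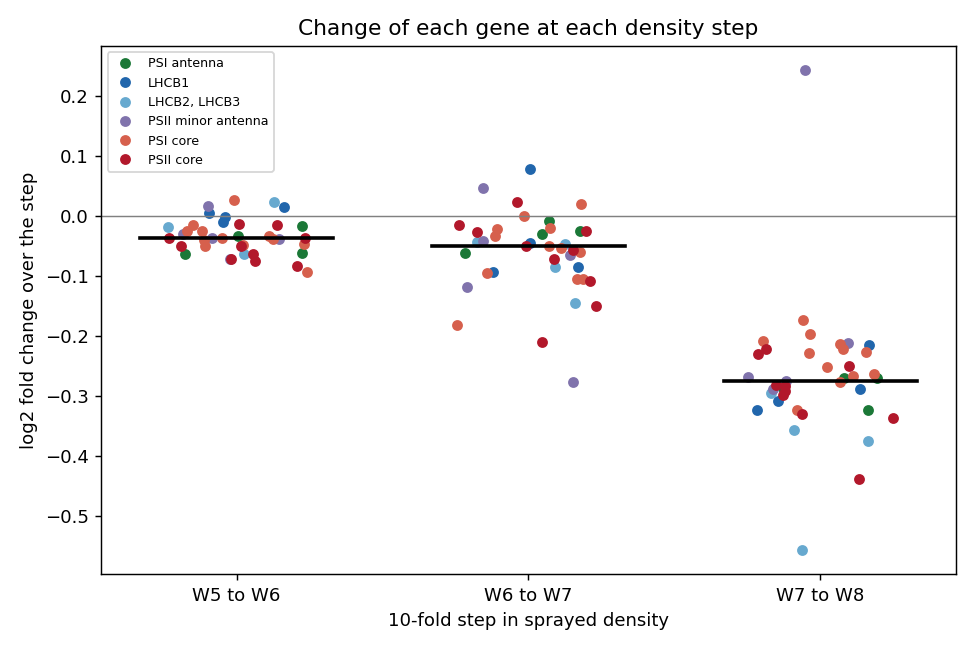
Log2 fold change of each of the 39 genes over each 10-fold step in sprayed density, coloured by role, with the median as a bar. The medians are -0.04, -0.05 and -0.27, and the single point above 0 at the last step is LHCB4.3.

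The photosystem I antenna fell as a group in W8. All 4 LHCA genes, which encode the belt of antenna proteins along one side of photosystem I, were called lower, with a median of -0.41 against mock and -0.35 against W5. LHCA1 (AT3G54890) stood at 7484, 7461 and 6097 CPM in mock, 7080, 6122 and 6749 in W5, 6884, 6230 and 6388 in W6, 6824, 5980 and 5893 in W7, and 5269, 4526 and 5147 in W8. All 3 W8 libraries were the lowest of the 15, and the other groups overlapped. Against mock it changed by -0.49 ± 0.09 (SE; adjusted p = 0.000442), and its slope was -0.13 per 10-fold density (adjusted p = 0.00369). LHCA3 (AT1G61520) ran from 5626 to 6620 CPM in mock, from 5761 to 6250 in W5, from 5589 to 5991 in W6, from 5367 to 6101 in W7 and from 4444 to 4847 in W8, a change of -0.41 ± 0.08 against mock (adjusted p = 0.000494). LHCA2 (AT3G61470) ran from 4901 to 5687 CPM in mock and from 3929 to 4240 in W8, with no overlap, a change of -0.38 ± 0.08 (adjusted p = 0.000846). LHCA4 changed by -0.41 ± 0.08 (adjusted p = 0.000407).

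The major antenna of photosystem II is built of LHCB1, LHCB2 and LHCB3 trimers, and the changes of its genes against mock in W8 ran from -0.79 (LHCB2.3) to -0.26 (LHCB1.4). The difference between LHCB2.3 and its 2 relatives, taken as a ratio within a library, was not called over the inoculated groups (rho -0.518, exact permutation test, adjusted p = 0.125), and other differences among these genes were not tested. LHCB1.3 (AT1G29930), the most abundant of the 40 genes, stood at 23606, 25204 and 21887 CPM in mock, 23675, 21141 and 23053 in W5, 23995, 21663 and 22955 in W6, 23640, 21897 and 20974 in W7, and 19923, 17587 and 19780 in W8. W8 lay below all other libraries, and its change against mock was among the smallest, -0.30 ± 0.09 (adjusted p = 0.00929). LHCB1.1 (AT1G29920) ran from 5453 to 6460 CPM in mock and from 4325 to 4648 in W8 (-0.44 ± 0.09, adjusted p = 0.000484), and LHCB1.2 (AT1G29910) from 6909 to 8554 and 4920 to 5904 (-0.51 ± 0.10, adjusted p = 0.000475). LHCB1.4 (AT2G34430) changed by -0.26 ± 0.09 (adjusted p = 0.0233). The 3 similar copies LHCB1.1, LHCB1.2 and LHCB1.3 may share reads, although 0 windows of the read length were identical among them. Their summed counts were therefore also tested, and fell by 0.37 on the log2 scale against mock (adjusted p = 0.00279). The same sum was not called from W7 to W8 (-0.25 ± 0.09, adjusted p = 0.0686).

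LHCB2 and LHCB3 had the lowest median of the 6 roles, -0.54 against mock and -0.49 against W5. LHCB2.3 (AT3G27690) stood at 1381, 1310 and 897 CPM in mock, 1178, 994 and 1158 in W5, 1259, 1022 and 1104 in W6, 1198, 844 and 1019 in W7, and 764, 506 and 811 in W8. W8 was lower than every other library, although mock replicate 3 and W7 replicate 2 came near to it. Its change of -0.79 ± 0.21 against mock (adjusted p = 0.0112) had a wide error, and it is uncertain through an overlapping gene. LHCB3 (AT5G54270), which joins LHCB1 and LHCB2 in the trimers, ran from 5284 to 6463 CPM in mock, from 5416 to 6196 in W5, from 5285 to 5961 in W6, from 4965 to 5885 in W7 and from 3728 to 4351 in W8 (-0.55 ± 0.10, adjusted p = 0.000186). LHCB2.1 (AT2G05100) ran from 4446 to 5092 CPM in mock and from 3135 to 3503 in W8 (-0.54 ± 0.08, adjusted p = 3.96e-05). LHCB2.2 (AT2G05070) ran from 3155 to 3737 and 2436 to 2814 (-0.41 ± 0.09, adjusted p = 0.000942), and the 2 copies summed fell by 0.48 on the log2 scale (adjusted p = 0.000152).

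The minor antenna (LHCB4, LHCB5 and LHCB6, the proteins CP29, CP26 and CP24 that link the trimers to the core) had a median of -0.38 against mock, with 4 of 5 genes called lower. LHCB6 (AT1G15820) stood at 4117, 4142 and 3341 CPM in mock, 3832, 3356 and 3606 in W5, 3940, 3201 and 3433 in W6, 3533, 3076 and 3133 in W7, and 2853, 2438 and 2764 in W8. Every W8 library was below all others, and the change was -0.53 ± 0.10 (adjusted p = 0.000383). LHCB5 (AT4G10340) ran from 6440 to 7567 CPM in mock and from 4801 to 5544 in W8 (-0.44 ± 0.09, adjusted p = 0.000797), and LHCB4.1 (AT5G01530) from 5110 to 6082 and 4231 to 4520 (-0.38 ± 0.09, adjusted p = 0.00187). LHCB4.2 changed by -0.31 ± 0.09 (adjusted p = 0.00843). LHCB4.3, at 6 to 15 CPM over all libraries, was not called in any comparison (W8 against W5 -0.02 ± 0.31, adjusted p = 0.976). At such a level a change of the size seen in its relatives was not detectable.

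**Figure D3:**
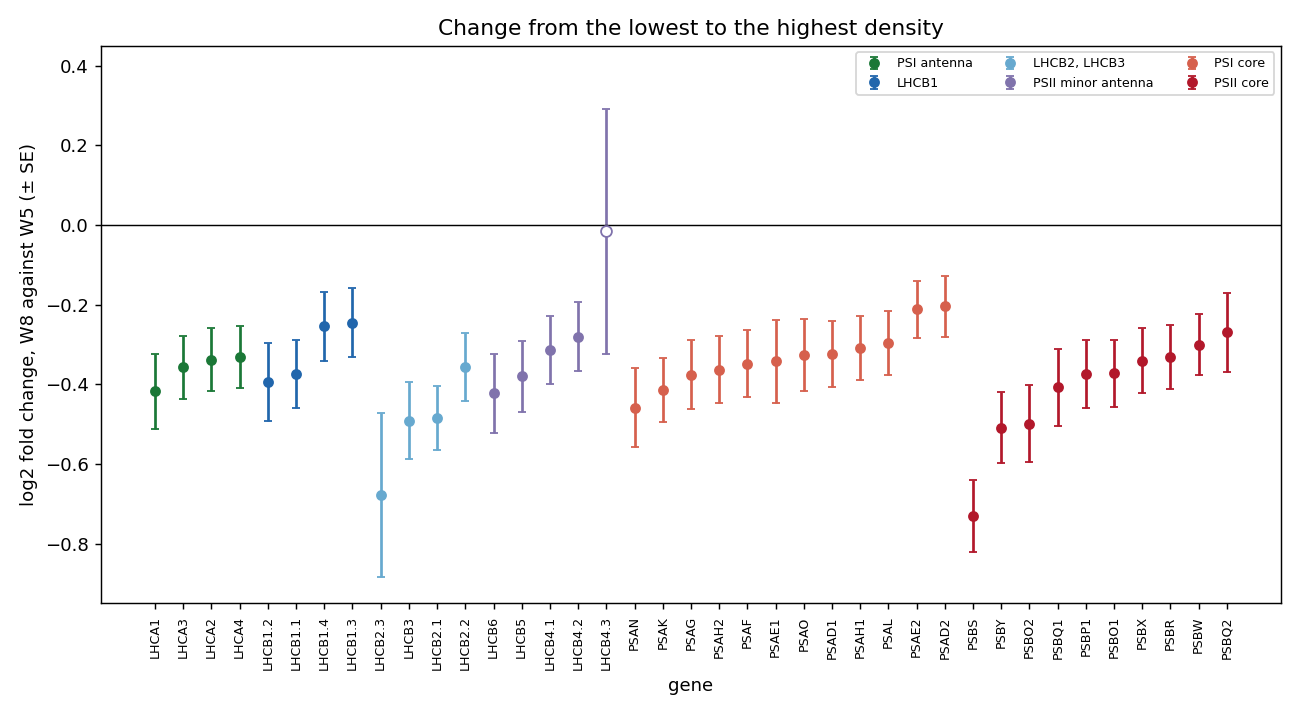
Log2 fold change from W5 to W8 with its standard error for each of the 39 genes, ordered within each role, filled where called at an adjusted p under 0.05 and open where not. PSBS and LHCB2.3 lie lowest, and LHCB4.3 is the one open point.

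The 12 genes of the photosystem I core were all called lower in W8, with a median of -0.43 against mock and -0.33 against W5. PSAN (AT5G64040), a lumenal subunit near the docking site of plastocyanin, stood at 2406, 2489 and 1952 CPM in mock, 2263, 1961 and 2099 in W5, 2189, 1894 and 2068 in W6, 2108, 1820 and 1830 in W7, and 1639, 1359 and 1603 in W8. Its W8 libraries were the 3 lowest, and its change was -0.57 ± 0.10 against mock (adjusted p = 0.000172). PSAK (AT1G30380), a small membrane subunit on the antenna side, ran from 1792 to 2127 CPM in mock, from 1798 to 1995 in W5, from 1677 to 2031 in W6, from 1693 to 1742 in W7 and from 1361 to 1474 in W8 (-0.50 ± 0.08, adjusted p = 8.25e-05). PSAG (AT1G55670), which is related to PSAK, ran from 250 to 302 CPM in mock and from 191 to 208 in W8 (-0.48 ± 0.09, adjusted p = 0.000274). PSAD2 had the smallest change, -0.25 ± 0.08 (adjusted p = 0.0152), and its slope was not called. The other 8 genes, which include PSAF of the plastocyanin docking site and PSAL and PSAO of the side that can bind LHCB proteins, changed by between -0.49 (PSAO) and -0.29 (PSAE2).

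The 10 PSB genes counted as the photosystem II core, PSBS among them, were also all called lower, with a median of -0.48 against mock and -0.37 against W5. PSBS (AT1G44575) stood at 1254, 1215 and 989 CPM in mock, 1075, 1002 and 1036 in W5, 1063, 889 and 988 in W6, 886, 769 and 887 in W7, and 648, 590 and 639 in W8. W8 was below every other library, and W7 was below all mock and W5 libraries. Against mock it changed by -0.44 ± 0.09 in W7 (adjusted p = 0.00277) and -0.88 ± 0.09 in W8 (adjusted p = 5.92e-07), and its slope was -0.24 per 10-fold density (adjusted p = 1.91e-05). As a ratio to the summed other photosystem II core genes, PSBS was at 0.0374 to 0.0393 in mock, from 0.0363 to 0.0376 in W5 and from 0.0281 to 0.0288 in W8. The W8 ratios were below those of all other libraries.

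PSBY (AT1G67740), a small membrane subunit, stood at 1826, 1761 and 1477 CPM in mock, 1685, 1522 and 1640 in W5, 1641, 1426 and 1545 in W6, 1544, 1329 and 1405 in W7, and 1213, 1038 and 1155 in W8. W8 did not overlap with any other group, and the change was -0.57 ± 0.09 against mock (adjusted p = 5.95e-05). PSBO2 (AT3G50820), one of the 2 copies of the protein that stabilises the manganese cluster, ran from 1307 to 1719 CPM in mock, from 1304 to 1496 in W5, from 1311 to 1525 in W6, from 1161 to 1384 in W7 and from 937 to 1063 in W8 (-0.62 ± 0.10, adjusted p = 6.7e-05). The other 7 genes, among them PSBP1 of the oxygen-evolving complex, changed by between -0.53 (PSBQ1) and -0.34 (PSBQ2).

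The balance of antenna and core genes differed little between groups. The summed antenna level divided by the summed core level was 1.77 to 1.846 in mock and from 1.82 to 1.86 in W5. It was from 1.87 to 1.9 in W6, from 1.847 to 1.89 in W7 and from 1.83 to 1.9 in W8. Every W6 and W7 library lay above every mock library, and W6 also lay above W5, while W8 overlapped with each of the other groups. The median log2 change of antenna genes was -0.41 against mock and -0.36 against W5, and that of core genes -0.45 and -0.34. Photosystem I over photosystem II was 0.476 to 0.480 in mock, from 0.471 to 0.480 in W5, from 0.466 to 0.472 in W6, from 0.470 to 0.474 in W7 and from 0.472 to 0.481 in W8. W8 overlapped there with mock, W5 and W7 and lay just above W6. All W6 and W7 libraries lay below all mock libraries. No p-value is attached to these sums.

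**Figure D4:**
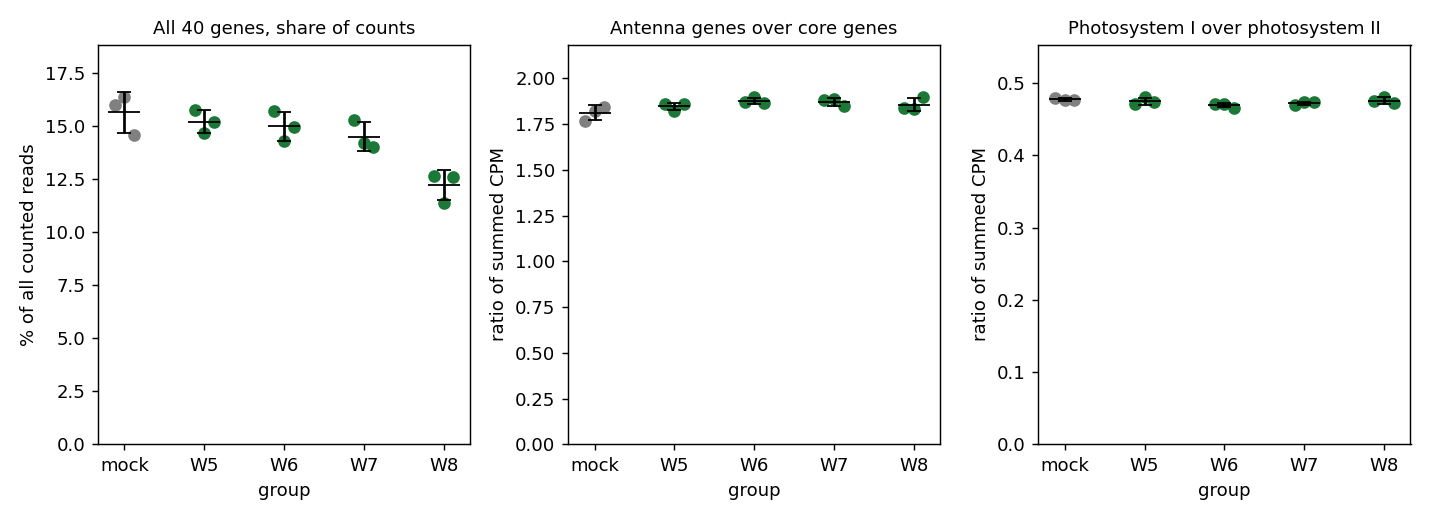
Share of all counts taken by the 40 genes, and the ratios of summed antenna to core and of photosystem I to photosystem II levels, for each library with the mean and SD of each group. The share drops in W8 while the ratios stay between 1.77 and 1.9 and between 0.466 and 0.481.

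Paralogues encoding the same subunit were compared within a library, where scaling cannot affect the ratio. Over the 12 inoculated libraries, 3 of 8 ratios followed the density in an exact two-sided permutation test of Spearman's rho, adjusted over the 8. PSAD1 over PSAD2, the copies of a stromal subunit that docks ferredoxin, averaged 1.64 ± 0.0232 in W5, 1.61 ± 0.0634 in W6, 1.53 ± 0.0252 in W7 and 1.51 ± 0.0187 in W8 (mean ± SD, n = 3), against 1.68 ± 0.0394 in mock (rho -0.842, exact permutation p = 0.00135, adjusted 0.0108). W7 and W8 lay below W5 in every library. PSAD1 itself stood at 2675 to 3270 CPM in mock and from 2175 to 2391 in W8, and PSAD2 at 1634 to 1924 and 1424 to 1604.

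PSBQ1 over PSBQ2, extrinsic proteins of the oxygen-evolving complex, averaged 0.733 ± 0.0280 in mock, 0.710 ± 0.0122 in W5, 0.682 ± 0.0102 in W6, 0.671 ± 0.0411 in W7 and 0.646 ± 0.0165 in W8 (rho -0.734, exact permutation p = 0.01, adjusted 0.0358). PSBQ1 ran from 1544 to 1993 CPM in mock and from 1145 to 1356 in W8, and PSBQ2 from 2108 to 2688 and 1753 to 2063. PSBO1 over PSBO2 went the other way, from 3.38 ± 0.0641 in W5 to 3.33 ± 0.0693 in W6, 3.56 ± 0.172 in W7 and 3.69 ± 0.0763 in W8, with 3.30 ± 0.145 in mock (rho 0.713, exact permutation p = 0.0134, adjusted 0.0358). PSBO1 ran from 4512 to 5440 CPM in mock and from 3509 to 3833 in W8. The PSBO relation was not called without W5 replicate 3 (rho 0.694), W7 replicate 1 (0.651), W7 replicate 3 (0.703) or any 1 of the W8 libraries (0.67 each), nor was the PSBQ relation without W5 replicate 3 (-0.67), W8 replicate 2 (-0.726) or W8 replicate 3 (-0.679). Without any one density the PSAD ratio was not called (rho -0.843 to -0.738, with fewer libraries tested). The ratios of PSAE1 to PSAE2 and of PSAH1 to PSAH2 reached an adjusted p of 0.0722 each in the exact permutation test, and the PSAH ratio was called without W5 replicate 1 (rho 0.853) and the PSAE ratio without W8 replicate 1 (-0.801). The other 3 ratios were not called.

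Most of the listed genes that serve the photosystems were also called lower from W5 to W8, a comparison in which 15.2% of all genes were called lower and 18.1% higher. Of the rare antenna relatives, 9 of 10 tested were called lower, among them LHCA6 (-0.71 ± 0.09, adjusted p = 1.09e-05), which joins photosystem I to the NDH complex. So were 12 of 14 import and assembly genes, among them CPSRP43 (-0.37 ± 0.07, adjusted p = 0.0004), which carries antenna proteins to the thylakoid. Of the electron carrier and ATP synthase genes 12 of 13 were called lower, with PGRL1A, a protein of cyclic electron flow, at -0.70 ± 0.07 (adjusted p = 1.17e-06). Of the chlorophyll synthesis genes 11 of 14 were called lower, with CHLG, the chlorophyll synthase, at -0.47 ± 0.07 (adjusted p = 3.07e-05). In the last list PORA, a protochlorophyllide reductase, rose by 0.67 ± 0.25 (adjusted p = 0.0498). Of 15 regulators 7 fell and 2 rose, the latter a smaller share than that of all genes called higher: GLK2, an activator of the photosynthesis genes, changed by -0.94 ± 0.07 (adjusted p = 4.36e-08), its relative GLK1 by -0.47 ± 0.06 (adjusted p = 8.3e-06) and the GATA factor GNC by -0.85 ± 0.09 (adjusted p = 5.85e-07), while PIF1, a phytochrome-interacting factor, rose by 0.29 ± 0.06 (adjusted p = 0.00123) and PIF5 by 0.18 ± 0.07 (adjusted p = 0.0492). The 7 plastid-encoded photosystem genes, of which poly-A libraries catch little, gave 0 calls from W5 to W8, and also 0 at an unadjusted p under 0.05, although all 7 values were negative with a median of -0.55. Against mock, W8 had a median of -0.87 with all 7 negative. There 2 were at an unadjusted p under 0.05, where the share of all genes was not counted, and 0 were called. A change of these plastid genes was therefore not resolved.

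Other measures moved with the fall. The 3 mesophyll markers (RBCS1A, CA1 and RCA) were all called lower from W5 to W8, with summed levels of 18071 to 20742 CPM in W5 and from 13622 to 15501 in W8. Their levels do not measure the number of mesophyll cells apart from the RNA per cell. Of markers of other leaf cells, 1 of 3 for guard cells, 1 of 2 for epidermis and 0 of 2 for phloem were called lower, against 15.2% of all genes. Against mock, 2 of 3 guard cell markers were called lower in W8 (median -0.50), beside 17% of all genes. The 5 immune markers were all called higher, PR1 by 7.10 ± 1.16 (adjusted p = 0.00088). Of all genes, 18.1% were called higher from W5 to W8 and 18.5% in W8 against mock. The part of any of these in the lower photosystem levels was not tested.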

How the data were processed

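Per the labels, poly-A RNA from the aboveground parts of 15 pools was made into paired-end libraries (150 bases), and the authors deposited raw read counts per gene, without normalization, in 1 table. The submitters' processing notes name the genome build TAIR10, featureCounts 1.22.2 and cutadapt 1.9.1, whereas aligner, annotation and strand setting were not given in the sources used here. Of 32833 genes, 32548 matched RefSeq's TAIR10.1 annotation, from which overlaps and upstream windows were read by locus. The members and lists were chosen with earlier results of these data known.

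Genes were kept by filterByExpr (minimum count 10, minimum total 15), which left 19404, or 19285 for the slope. Counts were TMM-scaled and tested with edgeR 4.0.16 in R 4.3.3 (glmQLFit with robust=TRUE, glmQLFTest, 1 mean per group over all 15 libraries; slope on log10 density over the 12 inoculated libraries), with Benjamini-Hochberg adjustment over all genes tested and a threshold of 0.05. CPM are scaled with the TMM factors. DESeq2 1.42.0 and limma 3.58.1 were alternatives. The procedure was tested on simulated counts, drawn independently with the same dispersion for all genes. They held none of the library-wide shifts seen here, so that test does not cover such shifts. Genes named with their changes are mainly the 3 of each role with the smallest p in the slope, and the pairs whose ratio followed density. LHCB1.4, LHCB2.3 and LHCB4.3 were chosen after their values were seen. LHCA4 and LHCB4.2 are given outside this rule, and PSAO and PSAE2 as the ends of a range. Of each pathway list, genes were taken from the 3 with the smallest p, and PORA, PIF1 and PIF5 were added after their values were seen. The replicates pool different plants, and p-values measure the spread between these pools. Sampling noise would give a chi-square near 1 per degree of freedom between replicates; the closest pair, in W8, reached 3.84, so none was merged.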

Additional observations from a re-analysis of the deposited data

How the results depend on the processing

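Single-gene values under the alternatives were tallied only for the 3 genes of each role with the smallest slope p and the called ratio pairs. They covered W8 against mock, W8 against W5, the slope and, for PSBS, W7 against mock. Of these values, 1672 stayed on the same side of the threshold and 73 lost it, 4 passed it newly and 1 reversed: the slope of PSAD2 without the W8 libraries was 0.000275. W8 against W7 and the genes outside that choice were not in this tally. The 280 role medians under the alternatives moved by less than 1 SD between replicates. Leaving out 1 of 3 libraries can seldom move a median that far, so this limit says little about stability. The median of all members in W8 against mock ranged from -0.518 to -0.392 over the fits leaving out one library. Counts against mock and between densities changed as follows. For W6 against mock, genes called lower ranged from 0 to 1 over the fits leaving out one library (0.117% to 0.899% of all genes). Without both mock replicate 3 and W8 replicate 2, 1 was called (1.1% of all genes). For W7 against mock they ranged from 1 to 24 (2.25% to 9.78% of all genes). There were 7 under DESeq2 (5.55%), 9 with the replicate block (7.16%) and 28 without both libraries (10.9%). For W8 against W7 they ranged from 2 to 35 (2.23% to 6.98% of all genes), with 14 without both (3.82%). For any difference the genes called ranged from 22 to 38, and the share of all genes was not counted there. The slope was called for 1 gene without the W8 libraries, an alternative chosen after seeing the data. The cause was not tested, although leaving out libraries lowers the number tested.

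Leaving out one library, rho ranged from 0.651 to 0.792 for PSBO1/PSBO2, -0.876 to -0.670 for PSBQ1/PSBQ2, -0.801 to -0.520 for PSAE1/PSAE2 and 0.497 to 0.853 for PSAH1/PSAH2. Pearson's r was -0.669 for PSAE1/PSAE2, past the threshold. Without the W5, W6, W7 and W8 libraries in turn, also chosen after seeing the data, rho was -0.791, -0.843, -0.791 and -0.738 for PSAD1/PSAD2 and 0.791, 0.738, 0.580 and 0.474 for PSBO1/PSBO2, all not called. For PSBQ1/PSBQ2 it was -0.580, -0.632 and -0.580 without W5, W6 and W8. PSAH1/PSAH2 was called at 0.949 without W5. Without W8, LHCB4.3/LHCB4.1 reversed to -0.158 and LHCB2.3/(LHCB2.1+LHCB2.2) to 0.0527.

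The labels give the replicate numbers no shared batch, and over all genes same-numbered pairs correlated at -0.305 to 0.320, 6 of 30 over 0.1, so the libraries were not treated as paired. As a hint from the data that numbers may share something, 10 of 15 libraries correlated best with their own number, and over the 39 genes replicate 1 was most often the highest and replicate 2 most often the lowest in each inoculated group. With the replicate block, 38 genes were called lower in W8 against mock (16.9% of all genes) and 29 against W7 (5.72%).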
